A study of Mus musculus with 12 samples.

Results

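The subject here is a set of 10 neuropeptide precursor genes, Trh, Cartpt, Tac1, Npy, Sst, Vip, Cck, Penk, Pdyn and Crh, followed in hippocampal slices after chemical long-term potentiation (LTP). The members are a list of gene symbols, which were looked up among the Ensembl gene IDs of both count tables through the GENCODE M21 annotation. All 10 of them were found among the 41091 gene IDs. RNA-seq counts came from 12 libraries in 4 groups of 3, with an LTP and a control group at 1 hr and at 3 hr.

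All slices were acute hippocampal mini-slices of wild type C57BL/6 male mice aged 2 to 3 months, with the dentate gyrus trimmed off. LTP slices received 50 uM forskolin, which activates adenylyl cyclase, for 5 min and then forskolin with 30 mM KCl and 10 mM calcium for a further 5 min, and control slices received vehicle (0.2% DMSO) for 10 min. The tissue was frozen 1 hr or 3 hr after induction, and each animal gave both an LTP and a control library at its time point. The samples sequenced had, per the study's methods, been selected by qPCR for a rise in Arc and in the short Homer1 isoform, so the LTP groups stand for slices in which induction of these genes was seen. In these libraries Arc was at 533 CPM or more (counts scaled to the library size) in every LTP library and at 221 CPM or less in every control library at 1 hr. At 3 hr the lowest LTP library had 504 CPM of Arc and the highest control library had 219 CPM.

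Neuropeptides are made as larger precursor proteins, which enter the regulated secretory pathway, are cut by prohormone convertases, trimmed by carboxypeptidase E and often amidated, and are then stored in dense-core vesicles. Once released, they act mostly on G-protein-coupled receptors. In the hippocampus several of them mark classes of GABAergic interneurons: somatostatin (Sst), neuropeptide Y (Npy), vasoactive intestinal peptide (Vip) and cholecystokinin (Cck, which pyramidal cells also express). Prodynorphin (Pdyn) is known from granule cells of the dentate gyrus and their mossy fibers. Transcription of several precursor genes is known to respond to cAMP through the cAMP response element (CRE), the binding site of CREB.

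Because forskolin raises cAMP, the CRE letters in the members' promoters are shown first. RefSeq promoters (GRCm38.p6, 250 bases before to 50 after the transcription start) were matched for 8 of the 10 genes, all but Penk and Crh. The full CRE, TGACGTCA, which reads the same on both strands, was present in the promoters of Cartpt and Sst and in 1.79% of 32851 mouse promoters of the same length. Allowing any base in the middle position, TGACNTCA on either strand, added Trh to these members, and 8.83% of all promoters held a match. The shorter core TGACG on either strand, which lies within the full CRE, was found in Trh, Cartpt, Tac1, Sst, Vip and Cck and in 20.8% of all promoters. The AP-1 element TGANTCA, present in 7.81% of all promoters, was found in 0 of these 8. Windows of 30 bases around the matches are given below in the direction of transcription, with the matching letters in capitals, and positions counted back from the RefSeq start. The first pair is from Trh, the precursor gene with the largest LTP effect:
Trh, chr6:92244689-92244718, minus strand, match at -57 to -50: cccctccccgcTGACCTCAcaggcgccgct
Trh, chr6:92244729-92244758, minus strand, match at -96 to -92: ccccggctctgcCGTCAgcgcccctgcatt
The next 3 are from Cartpt and Tac1, the other precursor genes that rose at 3 hr:
Cartpt, chr13:99900777-99900806, minus strand, match at -112 to -105: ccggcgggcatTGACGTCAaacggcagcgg
Tac1, chr6:7555006-7555035, plus strand, match at -43 to -39: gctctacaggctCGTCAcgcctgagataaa
Tac1, chr6:7554852-7554881, plus strand, match at -197 to -193: tccctaaaattgCGTCAtttcgaacacaat
The last 3 are from Sst, Vip and Cck, which hold the same letters and were not called at either time:
Sst, chr16:23890874-23890903, minus strand, match at -48 to -41: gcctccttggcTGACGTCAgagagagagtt
Vip, chr10:5639127-5639156, plus strand, match at -79 to -75: ggatcactactgTGACGtctttcggggagc
Cck, chr9:121495724-121495753, minus strand, match at -47 to -43: cctgctggactgCGTCAgcactgggtaaac
The windows of Cartpt, Sst and Tac1 overlap the first exon of a longer GENCODE transcript (Cartpt-202, Sst-201 and Tac1-205), and those of Trh, Vip and Cck overlap no annotated exon. A match only describes the letters, and the data hold no measurement of binding at these promoters.

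Cck, Sst and Npy were the most abundant members in each of the 4 groups. Per length (CPM per kb of annotated exon), 3 hr control slices had 158 ± 9.51 of Cck, 94.1 ± 9.13 of Sst, 55.6 ± 3.08 of Npy and 13.7 ± 1.58 of Penk (mean ± SD, n = 3), each apart from the next in every library. Vip followed at 3.59 ± 0.314 and Pdyn at 3.13 ± 0.316, with overlapping libraries. Tac1 (2.35 ± 0.184), Trh (1.99 ± 0.936) and Cartpt (1.18 ± 0.107) came next, with Trh overlapping both of the others, and Crh was lowest at 0.831 ± 0.0809. In 3 hr LTP slices Trh had moved up to stand right after Penk, at 8.98 ± 0.823 CPM per kb, apart from Penk above it (13.2 ± 0.613) and from Tac1 below it (3.66 ± 0.558). In 1 hr LTP slices Trh, at 3.29 ± 0.66 CPM per kb, overlapped Vip at 3.64 ± 0.316. The order below Npy depends on the length used: the study took expression from reads in coding regions, and whether the deposited counts hold those reads alone is not given in the sources used here. Per kb of coding sequence, a length chosen after seeing the data, Tac1 (390 coding of 3399 exonic bases) stood at 31.9 ± 4.86 CPM per kb in 3 hr LTP slices, overlapping Penk at 26.7 ± 1.25, while Trh stood at 16.2 ± 1.49, below Vip. All members were above the floor of 3 counts, which corresponded to between 0.059 and 0.0808 CPM. Crh had the fewest reads, from 25 to 63 counts a library, then Cartpt with 36 to 132 and Trh with 48 to 611, whereas Cck had 7345 to 12994.

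**Figure D1:**
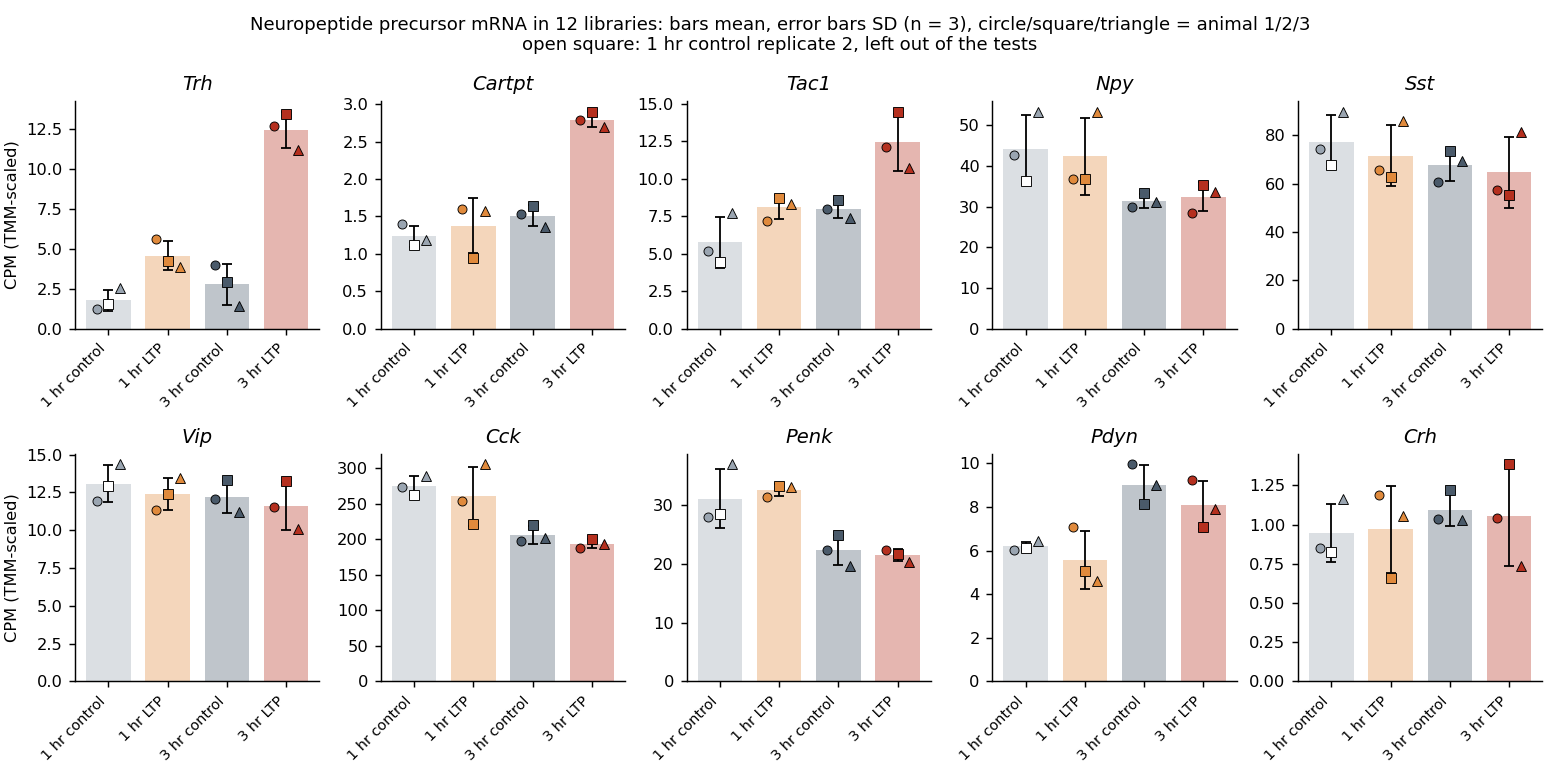
CPM of each precursor gene (y axis, linear, a scale of its own for each gene) in the 4 groups (x axis). Bars are means of 3 libraries and error bars SD. Circles, squares and triangles are the libraries of animals 1, 2 and 3, and the open square is 1 hr control replicate 2, which the tests leave out. Trh, Cartpt and Tac1 stand above every other group in all 3 of the 3 hr LTP libraries, and Npy, Cck and Penk are lower at 3 hr than at 1 hr with and without LTP.

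The first comparison asked which precursor genes had changed 1 hr post LTP induction. Trh was the 1 member of 10 that was called, and it rose. A gene is called here when it passes a fold change of 1.2 with an adjusted p below 0.1. Over all 17736 genes tested, 0.789% were called. Trh encodes the precursor of thyrotropin-releasing hormone (TRH), a tripeptide best known from the hypothalamus. Its level was 1.24, 1.51 and 2.51 CPM in 1 hr control replicates 1, 2 and 3 and 5.59, 4.22 and 3.86 CPM in the 1 hr LTP libraries of the same animals. Every LTP library was thus above every control library, with a ratio of 4.25 in animal 1, 2.68 in animal 2 and 1.51 in animal 3. How many of all genes separate in this way was not counted, here or in the comparisons that follow.

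The study set aside 1 hr control replicate 2 as an outlier of its clustering, and it is left out of all tests here. The 1 hr ratios within an animal, the group means and the statements on overlap still include it. Without it, the log2 fold change of Trh was 1.28 (SE 0.262, 95% interval 0.72 to 1.84, adjusted p = 0.0401 by the edgeR quasi-likelihood test), a 2.43-fold rise. With that library it was 1.38 (adjusted p = 0.0105). This call rested on few libraries: without 1 hr control replicate 1 the log2 fold change was 0.87 (adjusted p = 0.481), without 1 hr LTP replicate 1 it was 1.11 (adjusted p = 0.249), and without 1 hr control replicate 3 it was 1.88 (adjusted p = 0.00892). Taken from 1 model of all 4 groups, it was 1.27 with an adjusted p of 0.262. As these are bulk samples, more cells that express a gene and more RNA per cell cannot be told apart, for Trh and for each gene that follows.

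At 3 hr the rise of Trh was measured again in libraries that the 1 hr comparison did not use, and Cartpt and Tac1 rose as well. These 3 genes were the members called among the 10, all of them higher in LTP slices, against 6.6% of the 17508 genes tested. The 3 hr control libraries of animals 1, 2 and 3 had 3.98, 2.90 and 1.40 CPM of Trh, and the LTP libraries had 12.7, 13.4 and 11.2 CPM. The controls thus varied more among themselves than the LTP libraries did, and the groups were far apart. Trh rose 4.58-fold (log2 fold change 2.20, SE 0.279, 95% interval 1.56 to 2.83, adjusted p = 0.00584), and the ratio within an animal was 3.13, 4.51 and 7.52. Over all alternative settings, leaving out each library included, its log2 fold change stayed between 1.87 and 2.56 and its adjusted p at or below 0.0422.

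Cartpt encodes the precursor of the cocaine- and amphetamine-regulated transcript (CART) peptides. It was at 1.54, 1.63 and 1.36 CPM in the 3 hr controls and at 2.79, 2.90 and 2.69 CPM in the LTP libraries of the same animals. The LTP libraries were all above the controls. They held 102 to 132 counts each and the controls 70 to 75. At counts this low, the narrow spread of 3 libraries says little about precision. The log2 fold change was 0.90 (SE 0.137, 95% interval 0.59 to 1.22, adjusted p = 0.0124), or 1.87-fold, and it ran from 0.84 to 0.96 over the alternatives, with an adjusted p of at most 0.0683. At 1 hr Cartpt had been at 1.39, 1.12 and 1.18 CPM in control replicates 1, 2 and 3 and at 1.603, 0.949 and 1.58 CPM in the LTP libraries. Those groups overlapped, and the log2 fold change was 0.11 (95% interval -0.52 to 0.74, adjusted p = 0.985).

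Tac1 encodes preprotachykinin 1, from which substance P and neurokinin A are cut. The 3 hr control libraries had 8.0, 8.60 and 7.36 CPM and the LTP libraries 12.1, 14.5 and 10.7 CPM. Again no LTP library was as low as a control, and the ratio was 1.504, 1.68 and 1.45 in animals 1, 2 and 3. The log2 fold change was 0.65 (SE 0.12, 95% interval 0.38 to 0.93, adjusted p = 0.025), a 1.57-fold rise. With 3 hr control replicate 1 left out the call was lost (log2 fold change 0.66, adjusted p = 0.109), as it was with 3 hr control replicate 3 left out (0.60, adjusted p = 0.106), and the estimate changed little.

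At 1 hr Tac1 had been at 5.17, 4.45 and 7.70 CPM in control replicates 1, 2 and 3 and at 7.19, 8.73 and 8.35 CPM in the LTP libraries. It was higher in the LTP library of all 3 animals, where the control of animal 2 is the library that the tests leave out. The lowest LTP library was below the highest control. The log2 fold change was 0.34 (95% interval -0.02 to 0.69, adjusted p = 0.785), so a rise of Tac1 at 1 hr was not resolved from no change.

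**Figure D2:**
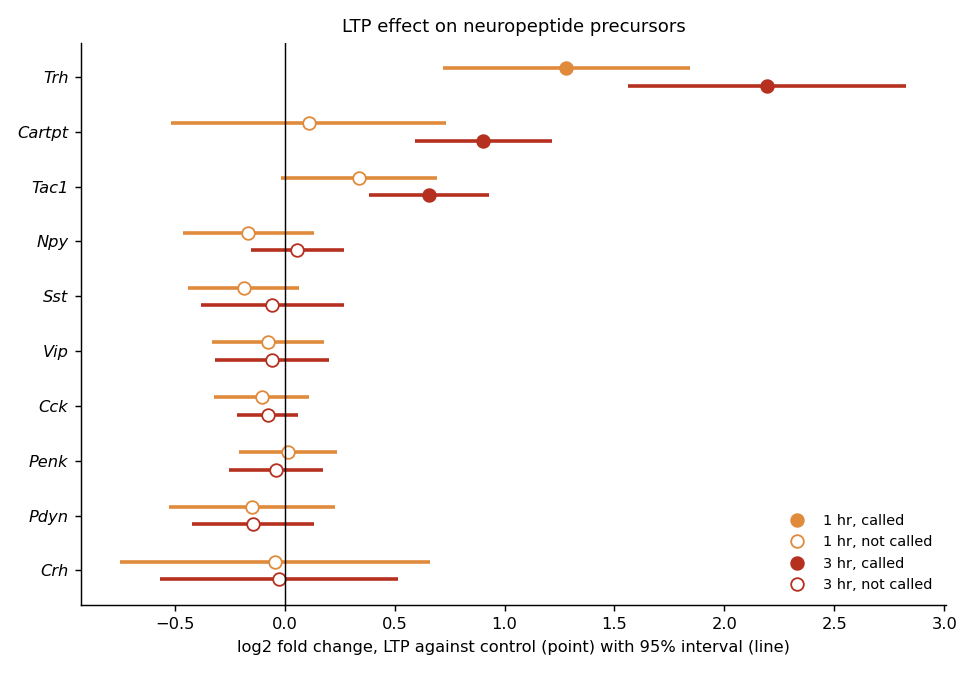
Log2 fold change of LTP against control slices (x axis) for each precursor gene (y axis) at 1 hr (orange) and 3 hr (red), with the 95% interval as a line. Filled points are called genes, which are Trh at both times and Cartpt and Tac1 at 3 hr. The intervals of the other 7 genes cross 0 at both times.

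Peptides of interneurons made up the next group, and none of Sst, Npy, Vip and Cck was called at either time. Sst encodes somatostatin, which dendrite-targeting interneurons release. It was at 74.3, 67.9 and 89.9 CPM in 1 hr control replicates 1, 2 and 3 and at 65.6, 63.0 and 86.2 CPM in the 1 hr LTP libraries. At 3 hr its controls had 60.6, 73.4 and 69.5 CPM and its LTP libraries 57.3, 55.3 and 81.4 CPM. The groups overlapped at both times, and at 1 hr Sst was slightly lower in the LTP library of all 3 animals. Its log2 fold change was -0.19 (95% interval -0.44 to 0.06) at 1 hr and -0.06 (-0.38 to 0.27) at 3 hr.

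Npy encodes neuropeptide Y, an inhibitor of glutamate release in the hippocampus. It was at 42.7, 36.4 and 53.2 CPM in 1 hr control replicates 1, 2 and 3 and at 36.9, 36.9 and 53.4 CPM in the LTP libraries. Its 3 hr controls had 30.0, 33.4 and 31.0 CPM and its LTP libraries 28.4, 35.3 and 33.7 CPM. The libraries of animal 3 were the highest of each 1 hr group. Its log2 fold change was -0.17 (95% interval -0.46 to 0.13) at 1 hr and 0.06 (-0.15 to 0.27) at 3 hr. Without 1 hr LTP replicate 3, both Npy (log2 fold change -0.36, adjusted p = 0.0888) and Sst (-0.34, adjusted p = 0.08) were called lower at 1 hr.

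Vip, of interneurons that mainly contact other interneurons, varied least of the members, and its highest library was 1.43 times its lowest. Its 1 hr controls had 11.96, 12.9 and 14.4 CPM in replicates 1, 2 and 3 and its 1 hr LTP libraries 11.3, 12.4 and 13.5 CPM. At 3 hr the controls had 12.1, 13.3 and 11.2 CPM and the LTP libraries 11.5, 13.3 and 10.05 CPM. Vip was lower in the LTP library of all 3 animals at both times, by a small amount, and the groups overlapped. For Vip the log2 fold change was -0.08 (95% interval -0.33 to 0.18) at 1 hr and -0.06 (-0.32 to 0.20) at 3 hr.

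Cck, the precursor of cholecystokinin, was the member with the most reads and the narrowest interval. Its 1 hr controls had 274, 263 and 290 CPM in replicates 1, 2 and 3, and the LTP libraries had 254, 222 and 305 CPM. At 3 hr the controls had 197, 221 and 202 CPM and the LTP libraries 188, 200 and 194 CPM. Each 3 hr LTP library was below the control of its animal, with overlapping groups. For Cck the log2 fold change was -0.10 (95% interval -0.32 to 0.11) at 1 hr and -0.08 (-0.22 to 0.06) at 3 hr, so the 3 hr interval leaves no room for a rise as large as the fold threshold of 1.2, a log2 value of 0.263.

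Markers of the cells concerned were counted beside these values. Of 12 inhibitory neuron markers, 0 were called by edgeR at 1 hr, where 3 had an unadjusted p under 0.05 (6.71% of all genes tested did), and at 3 hr, where 3 did as well (20.2% of all genes), 1 was called: Calb2 (calretinin) was lower in LTP slices, at a log2 fold change of -0.62 (SE 0.123, adjusted p = 0.0312). Their summed level was 968 to 1030 CPM in 3 hr controls and 1010 to 1035 CPM in 3 hr LTP slices, and their median log2 fold change at 3 hr was 0.03. None of the CA1, CA3, dentate granule, astrocyte, microglia, oligodendrocyte, endothelial or choroid plexus markers was called in either LTP comparison. An unadjusted p under 0.05 was reached at 1 hr by 3 oligodendrocyte, 3 endothelial and 1 choroid plexus markers, and at 3 hr by 1 CA3, 1 astrocyte, 1 endothelial and 1 choroid plexus marker. The part of these cell types in the rise of Trh, Cartpt and Tac1 was not tested.

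The opioid precursors likewise showed no LTP call. Penk encodes proenkephalin, the source of the enkephalins. Its 1 hr controls had 27.9, 28.5 and 36.9 CPM in replicates 1, 2 and 3 and its LTP libraries 31.4, 33.2 and 33.1 CPM. The 3 hr controls had 22.3, 24.9 and 19.7 CPM and the LTP libraries 22.4, 21.7 and 20.4 CPM. The LTP libraries lay within the range of the controls at both times, and the log2 fold change was 0.02 (95% interval -0.21 to 0.24) at 1 hr and -0.04 (-0.25 to 0.18) at 3 hr. Penk shares 14.3% of its exonic bases with A830012C17Rik on the opposite strand, so its counts depend on whether strand was used in counting, whereas the other 9 members share none with another gene.

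Pdyn encodes prodynorphin, the source of the dynorphins. Its 1 hr controls had 6.02, 6.12 and 6.42 CPM in replicates 1, 2 and 3, and its LTP libraries had 7.07, 5.06 and 4.58 CPM. At 3 hr the controls had 9.95, 8.12 and 8.99 CPM and the LTP libraries 9.25, 7.10 and 7.91 CPM. The 1 hr LTP libraries lay on both sides of their narrow controls, and at 3 hr each LTP library was below the control of its animal. For Pdyn the log2 fold change was -0.15 (95% interval -0.53 to 0.23) at 1 hr and -0.14 (-0.42 to 0.13) at 3 hr.

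Crh, the precursor of corticotropin-releasing hormone, which hippocampal interneurons release in stress, had too few reads for a precise estimate. Its 1 hr controls had 0.852, 0.827 and 1.16 CPM in replicates 1, 2 and 3, and its LTP libraries had 1.19, 0.659 and 1.06 CPM. At 3 hr the controls had 1.04, 1.22 and 1.03 CPM and the LTP libraries 1.05, 1.38 and 0.739 CPM. The intervals of its log2 fold change, -0.75 to 0.66 at 1 hr and -0.57 to 0.51 at 3 hr, were among the widest, and a change well over the fold threshold was not detectable at this depth and spread.

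Whether the LTP effect differed between the time points was tested as an interaction. No member passed an adjusted p under 0.1 in edgeR, where 0.0592% of 18584 genes did. At an unadjusted p under 0.05, which 6.59% of all genes reached, there was 1 member, Cartpt, whose log2 fold change was 0.80 larger at 3 hr than at 1 hr (95% interval 0.17 to 1.43, adjusted p = 0.637). The Trh effect was 0.92 larger at 3 hr (95% interval -0.04 to 1.89, adjusted p = 0.776), and that of Tac1 was 0.32 larger (-0.15 to 0.80, adjusted p = 0.883). DESeq2 and limma-voom gave 0 calls among the members as well. The Trh value ran from 0.29, with 1 hr control replicate 3 left out, to 1.30, with 1 hr control replicate 1 left out. A call at 3 hr and none at 1 hr, as for Cartpt and Tac1, therefore did not amount to a tested difference between the times.

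Receptors of these peptides had no call in either LTP comparison. Of 23 receptor genes, 18 had enough counts to be tested in each LTP comparison, and 0 were called at 1 hr or at 3 hr, where 1 and 4 had an unadjusted p under 0.05, near the 6.71% and 20.2% of all genes tested. Their median log2 fold change was -0.03 at 1 hr and -0.04 at 3 hr, where the median over all genes tested was -0.001 and -0.002. Of 19 genes for processing and clearance of peptides (prohormone convertases, carboxypeptidase E, the amidating enzyme Pam and peptidases), all were tested and 0 were called at either time, with 0 and 1 at an unadjusted p under 0.05. Their log2 fold changes at 3 hr spanned -0.20 to 0.25.

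Of 42 further neuropeptide and peptide hormone precursors, 41 were in the tables, 15 were tested at 1 hr and 19 at 3 hr, and 0 were called, with 0 and 2 at an unadjusted p under 0.05. Their median log2 fold change was 0.02 at 1 hr and 0.09 at 3 hr. Of the 3 lists together, 0 genes passed in the interaction. The members' own medians, -0.06 at 1 hr and -0.03 at 3 hr, were also near 0, since 6 of the 10 had a negative log2 fold change at each time. Counts for the 3 lists are from edgeR alone.

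**Figure D3:**
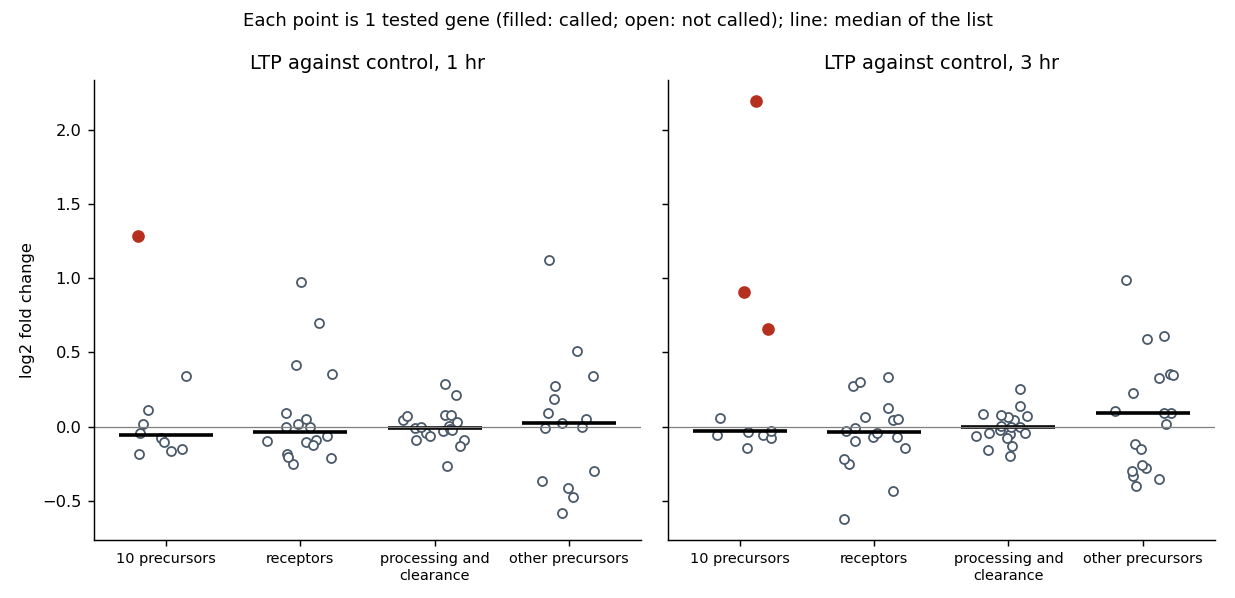
Log2 fold change of LTP against control (y axis) at 1 hr (left) and 3 hr (right) for the 10 precursors, their receptors, genes of peptide processing and clearance, and other precursors (x axis). Each point is 1 tested gene, filled where called, and the line is the median of the list. The filled points are all among the 10 precursors, and every list has a median near 0.

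The 3 hr and 1 hr slices were also compared within each treatment, which asks how the precursors differed with the time since treatment, with or without LTP. The time points were separate sets of slices, and the labels do not say whether equal animal numbers mean the same animal, so time, animals and handling cannot be told apart. In control slices 4 of 10 members were called, 3 lower and 1 higher at 3 hr, and in all genes 32.8% were called, so that a call in this comparison was common. In LTP slices 7 of 10 were called, against 35.9% of all genes. Both comparisons came from the same model of 11 libraries, and they share those libraries with the LTP comparisons above. The share of all genes whose libraries separated between the times was not counted, so separation is given below as description only.

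Penk, Cck and Npy were lower at 3 hr in both treatments, and every 3 hr library of each gene was below every 1 hr library of the same treatment. Penk fell by 0.57 on the log2 scale in control slices (SE 0.116, adjusted p = 0.00271) and by 0.62 in LTP slices (SE 0.106, adjusted p = 0.000692). With 1 hr control replicate 3 left out, Penk fell by 0.32 in control slices (adjusted p = 0.0985). Cck fell by 0.48 in control slices (SE 0.102, adjusted p = 0.00355) and fell by 0.44 in LTP slices (SE 0.0924, adjusted p = 0.00237), and the mean in controls went from 276 ± 13.4 CPM at 1 hr to 206 ± 12.4 CPM at 3 hr (SD, n = 3). Without 1 hr LTP replicate 3, Cck fell by 0.29 in LTP slices (adjusted p = 0.0111). Npy fell by 0.64 in control slices (SE 0.15, adjusted p = 0.00625) and by 0.41 in LTP slices (SE 0.136, adjusted p = 0.0315). Both Npy calls were lost without single libraries: Npy fell by 0.43 in control slices when 1 hr control replicate 3 was left out (adjusted p = 0.128), and it fell by 0.18 in LTP slices when 1 hr LTP replicate 3 was left out (adjusted p = 0.233) and by 0.31 when 3 hr LTP replicate 1 was left out (adjusted p = 0.126).

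Pdyn went the other way and was the member called higher at 3 hr in control slices. Its log2 fold change was 0.51 there (SE 0.17, adjusted p = 0.0359) and 0.52 in LTP slices (SE 0.153, adjusted p = 0.0168), and all 3 hr libraries were above all 1 hr libraries of the same treatment. Leaving out 1 hr control replicate 1 (0.50, adjusted p = 0.14) or 1 hr control replicate 3 (0.59, adjusted p = 0.102) ended the call in control slices. Dentate granule cell markers were still present in the trimmed slices: the summed level of 6 of them was 216 to 233 CPM in 1 hr controls and 196 to 237 CPM in 3 hr controls, which overlapped. Tdo2 among them was lower at 3 hr in control slices and Plk5 was higher, and 0 of 6 were called by edgeR in LTP slices, with 1 at an unadjusted p under 0.05 (46.2% of all genes).

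Trh, Cartpt and Tac1 were higher at 3 hr than at 1 hr in LTP slices, by 1.43 (SE 0.269, adjusted p = 0.00127), 1.00 (SE 0.191, adjusted p = 0.00137) and 0.60 (SE 0.144, adjusted p = 0.00538) on the log2 scale. For none of these genes did the libraries of the 2 LTP groups overlap. In control slices the difference was 0.51 for Trh (95% interval -0.26 to 1.28), 0.20 for Cartpt (-0.28 to 0.68) and 0.28 for Tac1 (-0.08 to 0.64), and none was called. The Trh value rested on single libraries: it was 0.14 without 1 hr control replicate 1 (adjusted p = 0.848), 0.17 without 3 hr control replicate 1 (adjusted p = 0.757) and 1.15 without 1 hr control replicate 3 (adjusted p = 0.12), and Trh was called higher without 3 hr control replicate 3 (0.85, adjusted p = 0.0489). Tac1 was called there with 1 hr control replicate 2 included (0.47, adjusted p = 0.0524) and without 1 hr control replicate 3 (0.64, adjusted p = 0.0405), and its value was 0.063 without 1 hr control replicate 1 (adjusted p = 0.835).

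Sst, Vip and Crh were not called in either treatment. Their log2 differences in control slices were -0.31 (95% interval -0.66 to 0.05), -0.14 (-0.41 to 0.14) and 0.09 (-0.55 to 0.73), and those in LTP slices were -0.17 (-0.49 to 0.15), -0.11 (-0.36 to 0.14) and 0.11 (-0.47 to 0.69). Without 3 hr LTP replicate 3, Sst was called lower in both control slices (-0.28, adjusted p = 0.079) and LTP slices (-0.36, adjusted p = 0.0371).

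**Figure D4:**
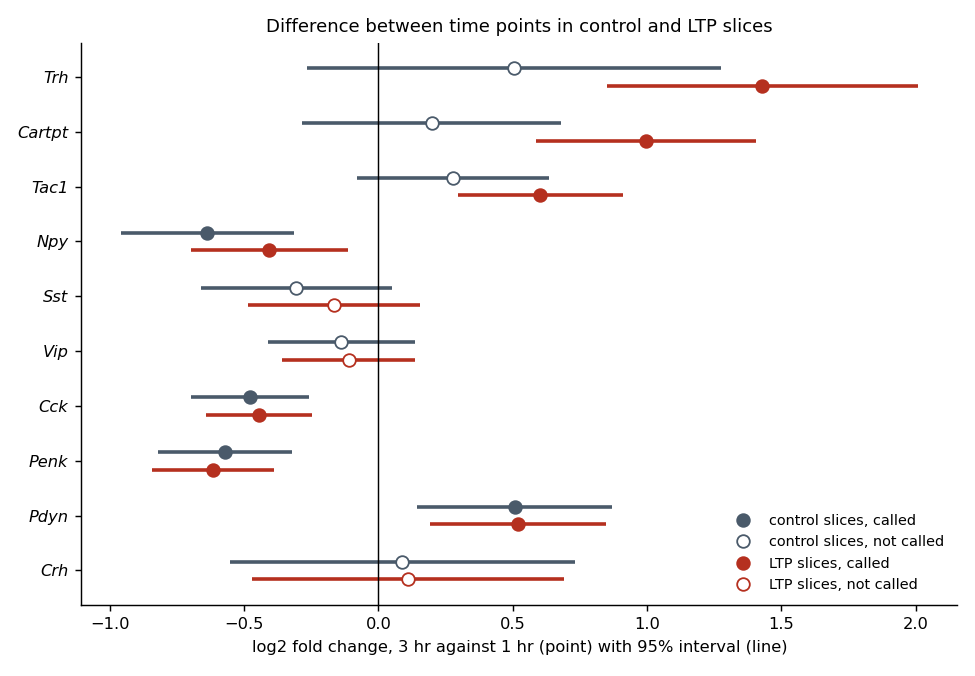
Log2 fold change of 3 hr against 1 hr slices (x axis) for each precursor gene (y axis) in control (grey) and LTP slices (red), with the 95% interval as a line and called genes filled. Npy, Cck and Penk are lower and Pdyn is higher in both treatments, and Trh, Cartpt and Tac1 are called higher in LTP slices and not called in control slices.

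Cell type markers differed between the time points too, as did 32.8% of all genes in control and 35.9% in LTP slices. Of 5 microglia markers 4 were lower at 3 hr in both treatments, and in control slices their summed level went from 185 to 196 CPM at 1 hr to 125 to 142 CPM at 3 hr. Among 12 inhibitory neuron markers 2 were higher and 3 lower in control slices, with a median log2 difference of -0.08, and their summed level was 903 to 974 CPM at 1 hr and 968 to 1030 CPM at 3 hr. In LTP slices 0 of these 12 were higher and 5 lower, with a median of -0.23, and 9 had an unadjusted p under 0.05 (46.2% of all genes did), while their summed level was 954 to 996 CPM at 1 hr and 1010 to 1035 CPM at 3 hr. Among excitatory neuron markers, Neurod6 was lower at 3 hr in control slices (log2 fold change -1.10) and in LTP slices (-0.91). Slc17a7 and Camk2a were not called in either treatment, with log2 fold changes of 0.082 and 0.099 in control slices and of 0.21 and 0.28 in LTP slices. Of 4 CA3 markers, 2 were lower and 1 higher in control slices and 3 lower and 1 higher in LTP slices, whereas 2 of 4 CA1 and 2 of 5 oligodendrocyte markers were higher in both. Of 4 endothelial markers, 2 were lower in control slices and 1 was higher in LTP slices. Of 5 astrocyte markers 1 was lower in both, and of 4 choroid plexus markers 0 were called in control slices and 1 was lower in LTP slices. The part of these shifts in the lower Npy, Cck and Penk was not tested.

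Between the control groups, 17 of the 58 tested genes of the 3 lists were called (29.3%), a share below the 32.8% over all genes. Of 19 tested receptors 5 were higher and 4 lower at 3 hr, of 19 processing and clearance genes 2 were higher and 2 lower, and of 20 tested other precursors 4 were higher and 0 lower. The 5 with the smallest p were Trhde, Scg5, Furin, Sstr2 and Sstr1. Trhde, the ectoenzyme that degrades TRH, was lower by a log2 fold change of -0.53 (SE 0.0846, adjusted p = 0.00059), and Scg5, the 7B2 chaperone of prohormone convertase 2, was lower (-0.46, SE 0.0791, adjusted p = 0.000921). Furin, a convertase of the constitutive secretory pathway, was higher (0.97, SE 0.188, adjusted p = 0.00198), as were the somatostatin receptor genes Sstr2 (0.91, SE 0.186, adjusted p = 0.00277) and Sstr1 (0.57, SE 0.136, adjusted p = 0.00659).

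For the 3 genes that rose at 3 hr, the genes with the most similar pattern over the 12 libraries were found by Pearson correlation of log2 CPM, over the 14185 genes that averaged 1 CPM or more. For Trh these were Tinf2 (r = 0.974), Trmt61b (0.964) and Gem (0.959). Tinf2 went from a mean of 22.4 CPM in 1 hr controls to 37.0 in 1 hr LTP, 24.8 in 3 hr controls and 81.8 CPM in 3 hr LTP slices. Cartpt was most like Osbp (0.963), Lipg (0.937) and Lcmt2 (0.933), and Tac1 was most like Zfp655 (0.965), Crem (0.952), a cAMP-responsive member of the CREB family, and Nbas (0.952). A correlation takes no account of the size of a change, and the sizes differed. From 3 hr control to 3 hr LTP slices, mean Osbp went from 68.8 to 73.3 CPM and Lipg from 4.23 to 7.15 CPM. Nbas went from 96.35 to 102 CPM and Crem from 24.7 to 36.25 CPM. The correlations describe 12 libraries that fall into 4 groups, so they mostly restate which genes differed between the groups.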

How the data were processed

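RNA-seq was measured in 12 libraries. The authors deposited raw counts per gene, 1 table per time point, which per the labels and the study's methods came from ribosomal RNA-depleted stranded total RNA aligned with STAR to GRCm38/mm10. They were counted with R GenomicAlignments, and the strand setting and annotation are not given in the sources used here. The study took expression from reads in coding regions. The deposited tables also hold long non-coding RNA genes, 3847 of 5311 with a count, so levels per kb used the exonic length, with coding length as an alternative added after seeing the data. Of 41091 gene IDs, 40217 matched GENCODE M21. Library totals ran from 37118382 to 50815001 counts. For the members with the fewest reads, Crh and Cartpt, counting error adds to the spread between libraries. No replicate pair was near identical (chi-square per degree of freedom 9.49 to 85.6 over genes with 20 or more counts in the pair, where 1 marks counting error).

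Counts were tested in edgeR 4.0.16 (R 4.3.3) by quasi-likelihood after filterByExpr and TMM scaling, with Benjamini-Hochberg adjustment over all genes tested. The study's thresholds, an adjusted p below 0.1 with a fold change above 1.2 (interaction: adjusted p alone), defined a call. The time points were fitted separately, and the comparisons between times used 1 model of 4 groups and 11 libraries. 1 hr control replicate 2 was left out, as in the study. CPM values were TMM-scaled over 12 libraries, ratios within an animal used a pseudocount of 0.1 CPM, and intervals are 95%. The fits were also run on simulated counts with the same spread for every gene and no outlier library. That checks the code and not the calls made here.

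The animal number pairs libraries within a time point, per the labels. Deviations of paired libraries from their group means correlated at -0.0149, -0.156 and 0.075 at 1 hr and at 0.0385, -0.0275 and 0.218 at 3 hr for animals 1, 2 and 3. The pairing across times is not stated. Alternatives were DESeq2 1.42.0, limma-voom 3.58.1, other scalings and filters, an adjusted p under 0.05, an animal block, 1 hr control replicate 2 included, a joint model and leaving out each library.

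The members, gene lists, marker lists, motifs and tests were chosen with earlier results of these data known. All members are named. Genes of the other lists are named where called in an LTP comparison or among the 5 smallest p between control groups, as are the 3 genes most correlated with each member called at 3 hr. Of the marker lists, called genes that stand beside a member were named after their values were seen. A marker result is not reported here.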

Additional observations from a re-analysis of the deposited data

How the results depend on the processing

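The rises of Trh and Cartpt at 3 hr kept their direction and call under every alternative run, and that of Tac1 under all but 2, which left out a control library. At 1 hr, 0 members were called in the model of 4 groups, and leaving out single libraries gave 0 to 3 calls. Over all genes tested, that model gave 107 calls at 1 hr, and leaving out single libraries gave 69 to 344. With the animal as a replicate block the number of members called was 1 at 1 hr, 3 at 3 hr, 0 in the interaction, 4 in control slices and 7 in LTP slices, and these were the same members as without it. Over all genes tested, the block gave 206 calls at 1 hr, 1662 at 3 hr and 13 in the interaction. It gave 6653 calls in control slices and 6780 in LTP slices. Across times the block joins equal animal numbers, which the labels do not say are the same animals. Of 935 alternative values for 48 fold changes and counts of calls, 25 changed sign, 0 of them for a called member, and none of those 25 was called. For Crh at 1 hr the log2 fold change was 0.17 with the block, 0.048 with 1 hr control replicate 2 and 0.022 with both. Leaving out libraries gave ranges that crossed 0 at 1 hr for Cartpt (-0.013 to 0.31), Vip (-0.20 to 0.061), Penk (-0.17 to 0.23) and Crh (-0.25 to 0.20). At 3 hr this held for Npy (-0.0033 to 0.14), Sst (-0.26 to 0.049), Vip (-0.16 to 0.027), Penk (-0.12 to 0.043) and Crh (-0.26 to 0.16). Between times it held for Tac1 in the interaction (-0.022 to 0.55), Vip (-0.22 to 0.038) and Crh (-0.072 to 0.37) in control slices, and Sst (-0.36 to 0.017) and Crh (-0.13 to 0.31) in LTP slices. The cause was not tested. Trh and Sst were called in control slices with no filter on low counts (0.53 and -0.28), as was Tac1 with 1 hr control replicate 2 and the block (0.47). In the interaction, 1 hr control replicate 2 with the block gave 0.12 for Tac1. Groups of 2 or 3 libraries limit these tests, and the low counts of Crh and Cartpt limit theirs further.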
